A study of Mus musculus with 17 samples.

Results

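Ly6d, Gprc5b, Sdr9c7, Prex2 and Ankrd12 were followed across livers and liver tumors of mice that lack the Nogo-B receptor (NgBR) in hepatocytes. These 5 genes were selected on their log2 fold changes between N-LKO and WT livers on the high-fat diet (HFD), so their HFD values describe the choice and carry no test. All 5 were listed in both gene tables, among 19151 genes under HFD, 24233 under the Western diet (WD) and 19032 in both. The question asked here is what these genes did in WD livers and in WD tumors, which the rule for choosing them did not use.

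RNA-seq was performed on 17 samples from mice. On HFD these were 4 livers of each genotype. On WD, a high-fat, high-cholesterol diet, they were 3 livers of each genotype and 3 tumors of N-LKO mice. Each diet was fed for 16 weeks, to male mice on a C57BL6 background. N-LKO mice carried loxP-flanked NgBR alleles (encoded by Nus1) and Cre under the albumin promoter, so that hepatocytes lose the gene. The paper names endothelial, stellate and Kupffer cells as examples of liver cells that express NgBR. The control mice were labelled WT, and which of these alleles they carried is not given in the sources used here. The samples were labelled as biological replicates, but whether tumors and N-LKO livers came from the same mice is not given. Within a diet, N-LKO and WT livers differed in genotype, and tumors and N-LKO livers in tissue. Tumors and WT livers differed in both, so genotype and tumor cannot be told apart in that comparison alone. HFD and WD libraries came in separate tables with different depths, so levels were not compared between diets.

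HFD libraries held 9096110 to 12215784 counts on 18215 to 18557 detected genes, and WD libraries 15494731 to 20200618 counts on 21918 to 23454 genes. Levels are given as CPM, the counts of a gene scaled to the library's total. A single count made at most 0.111 CPM in an HFD library and 0.0686 CPM in a WD library. The targeted gene Nus1, a subunit with Dhdds of the enzyme that makes dolichol, had 82.5 to 96.2 CPM in WT livers and 29.4 to 38.0 CPM in knockout livers under HFD. Under WD it had 88.2 to 98.9 CPM in WT livers, 41.7 to 51.1 CPM in N-LKO livers and 29 to 43.99 CPM in tumors. The libraries of the knockout groups thus lay below all WT libraries, as their labels say. Dhdds had 19.5 to 25.5 CPM in the HFD livers and 13.1 to 25.6 CPM in the WD libraries. The 6 hepatocyte markers, Alb among them, summed to 62364 to 72779 CPM in WT livers and 57045 to 74728 CPM in knockout livers under HFD. Under WD they summed to 44553 to 53954 CPM in WT livers, 31878 to 40333 CPM in N-LKO livers and 34531 to 61364 CPM in tumors. The WD N-LKO livers thus lay below the WD WT livers in this sum.

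The 5 genes belong to different pathways. Ly6d encodes a small surface protein of the Ly6/uPAR family, held in the membrane by a GPI anchor and known as a marker of early B-lineage cells and of stratified epithelia. Gprc5b encodes an orphan G protein-coupled receptor of class C, from a family first described as inducible by retinoic acid. Sdr9c7 encodes a short-chain dehydrogenase/reductase related to retinol dehydrogenases and best known from the skin, where it takes part in forming the lipid barrier. Prex2 encodes a guanine nucleotide exchange factor that activates the small GTPase Rac downstream of phosphoinositide 3-kinase (PI3K). Ankrd12 encodes a nuclear ankyrin-repeat protein, a relative of Ankrd11, that binds nuclear receptor coactivators and histone deacetylases.

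In the GENCODE M21 annotation of GRCm38, Ly6d (ENSMUSG00000034634.7) is a compact gene at chr15:74762056-74763620 on the minus strand, with 3 exons and a transcript of 744 bases. Gprc5b (ENSMUSG00000008734.9) lies at chr7:118972047-118995211 on the minus strand and its longest transcript has 4 exons. Sdr9c7 (ENSMUSG00000040127.13) lies at chr10:127898518-127911761 on the plus strand, also with 4 exons. Prex2 (ENSMUSG00000048960.13) spans 310217 bases at chr1:10993465-11303681 on the plus strand, with 40 exons. Ankrd12 (ENSMUSG00000034647.15) lies at chr17:65965698-66077089 on the minus strand, with 13 exons. All are protein-coding, and the values below are estimated counts per gene. Prex2 and Ankrd12 stand apart from the others in structure: their longest transcripts have 11053 and 10821 bases and a GC content of 40.6% and 40.0%.

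Promoter sequence was at hand for 3 of the 5 genes, from the RefSeq promoter table of GRCm38.p6. It is printed up to the first annotated base of each gene. Whether it goes with the direction of change was not tested. Capitals mark letters that match, on either strand, one of 8 motifs. These were the TATA box (TATAAA), the CCAAT box (its letters), the GC box (GGGCGG), a STAT-type site (TTCNNNGAA), the E-box (CACGTG), an AP-1 site (TGANTCA), a site of the HNF4A type (CAAAGTCCA) and the nuclear receptor repeat DR1.
Gprc5b, chr7:118995212-118995461, minus strand: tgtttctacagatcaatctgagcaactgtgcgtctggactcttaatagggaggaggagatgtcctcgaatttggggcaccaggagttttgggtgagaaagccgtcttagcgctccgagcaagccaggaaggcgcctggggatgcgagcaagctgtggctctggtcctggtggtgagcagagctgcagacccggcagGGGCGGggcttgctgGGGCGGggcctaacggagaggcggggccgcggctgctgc
Sdr9c7, chr10:127898285-127898517, plus strand: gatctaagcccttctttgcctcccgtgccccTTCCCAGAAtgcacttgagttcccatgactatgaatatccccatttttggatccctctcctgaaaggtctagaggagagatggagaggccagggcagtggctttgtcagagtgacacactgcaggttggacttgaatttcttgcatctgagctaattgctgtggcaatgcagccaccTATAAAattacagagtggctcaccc
Ankrd12, chr17:66077090-66077296, minus strand: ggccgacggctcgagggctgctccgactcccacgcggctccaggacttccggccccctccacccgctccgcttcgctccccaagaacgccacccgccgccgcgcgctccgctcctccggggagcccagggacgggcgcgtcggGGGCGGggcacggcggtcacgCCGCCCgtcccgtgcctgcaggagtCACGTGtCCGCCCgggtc
The promoters of Gprc5b and Ankrd12 were rich in G and C, at 66.3% and 73.0% over the whole window of the table, against a median of 52.7% over its 32851 promoters. That of Sdr9c7 had 51.0%. Over the whole window, the GC box was found 2 times in Gprc5b and 3 times in Ankrd12, and 35.7% of all promoters held it. Ankrd12 also held the E-box 2 times (7.15% of promoters) and the CCAAT box once (37.4%), with 1 E-box and the CCAAT box outside the printed stretch. Sdr9c7 held the TATA box once (13.6%) and the STAT-type site once (8.30%). The AP-1 site (7.81% of promoters), the HNF4A-type site (0.475%) and DR1 (0.0396%) had no match in these 3 windows. Such matches describe letters only.

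Ly6d was the most abundant of the 5 genes per length of exon in every group but the HFD WT livers. In HFD WT livers Sdr9c7 led with 19.4 ± 1.91 CPM per kilobase (SD, n = 4), followed by Ly6d with 5.44 ± 2.00 and Ankrd12 with 1.45 ± 0.196. Prex2 with 0.611 ± 0.126 and Gprc5b with 0.512 ± 0.370 CPM per kilobase did not differ there beyond their spread. In WD WT livers the means were 33.7 ± 16.1 for Ly6d, 13.3 ± 2.98 for Sdr9c7, 1.93 ± 0.186 for Ankrd12, 1.92 ± 0.407 for Prex2 and 0.998 ± 0.668 CPM per kilobase for Gprc5b (SD, n = 3). The levels of Ankrd12 and Prex2 could not be separated. In WD tumors the order was Ly6d with 182 ± 59.0, Gprc5b with 6.71 ± 3.11, Sdr9c7 with 4.09 ± 3.45, Prex2 with 2.09 ± 0.247 and Ankrd12 with 1.75 ± 0.429 CPM per kilobase. Gprc5b, which had the lowest mean of the 5 in WT livers of both diets, had the second highest mean in tumors, where the spreads of Gprc5b and Sdr9c7 overlapped.

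**Figure D1:**
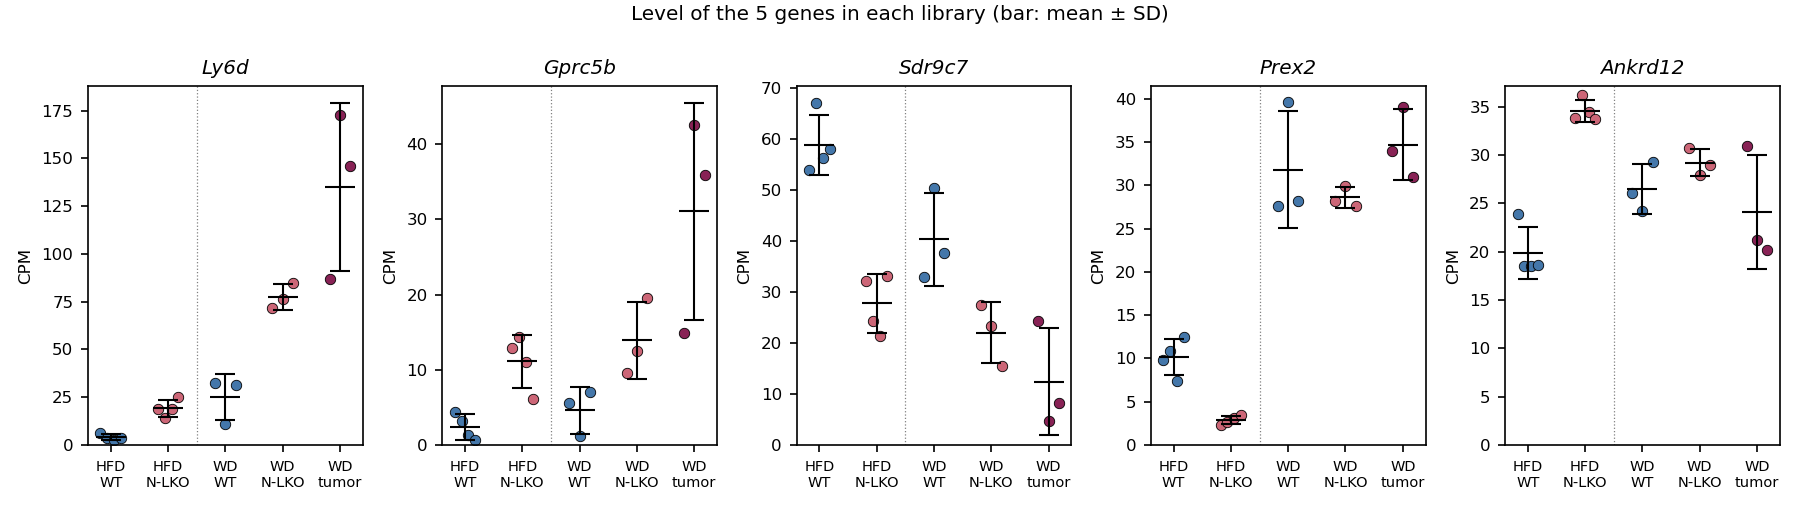
Level of each gene in CPM (vertical axis, from 0, a scale of its own per panel) in the 17 libraries by group, with points for libraries and bars for the mean ± SD. Ly6d and Gprc5b are higher and Sdr9c7 is lower in N-LKO than in WT livers of both diets without overlap, while Prex2 and Ankrd12 are separated by genotype in the HFD livers alone.

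Under HFD, Ly6d had 6.15, 3.92, 2.67 and 3.46 CPM in the WT livers and 18.6, 14.2, 18.8 and 25.2 CPM in the N-LKO livers, a log2 fold change of 2.24 (SE 0.24). Under WD, it had 32.5, 11.3 and 31.4 CPM in WT livers, 71.6, 76.2 and 84.9 CPM in N-LKO livers and 87.0, 173 and 146 CPM in tumors. The 3 WD groups did not overlap, with every N-LKO liver above every WT liver and every tumor above every N-LKO liver. In the edgeR fit the WD N-LKO livers were higher than WT by 1.63 (SE 0.37) on the log2 scale, which did not pass the threshold after Benjamini-Hochberg adjustment over 17829 genes (adjusted p = 0.353). No gene passed in that comparison, and 2212 genes, or 12.4%, had an unadjusted p under 0.05. By the DESeq2 Wald test 99 genes passed, and Ly6d was one of them (log2 fold change 1.62, adjusted p = 0.00430). Tumors exceeded WT livers by 2.43 (SE 0.38, edgeR adjusted p = 0.00820), so Ly6d rose in this comparison, and the difference between tumors and N-LKO livers was 0.80 (SE 0.36, adjusted p = 0.267). The rise in tumors against WT livers kept its side of the threshold under all 19 alternatives, with adjusted p-values from 7.88e-09 to 0.0370.

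Gprc5b followed the same order at lower counts. Its CPM were 4.38, 3.15, 1.33 and 0.611 in HFD WT livers, where the lowest library held 6 counts, and 12.8, 14.4, 11.0 and 6.16 in HFD N-LKO livers, a log2 fold change of 2.21 (SE 0.42). Under WD they were 5.62, 1.15 and 7.09 in WT livers, 9.59, 12.6 and 19.6 in N-LKO livers, and 14.9, 42.5 and 35.8 in tumors. N-LKO livers lay above WT livers without overlap, and tumor replicate 1 lay inside the range of the N-LKO livers. The log2 fold change of WD N-LKO against WT livers was 1.58 (SE 0.56, edgeR adjusted p = 0.360) and that of tumors against N-LKO livers 1.16 (SE 0.53, adjusted p = 0.277). Against WT livers Gprc5b rose in tumors by 2.74 (SE 0.57, adjusted p = 0.0167), and the adjusted p stayed between 1.39e-05 and 0.0498 over the alternatives.

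The 3' end of Gprc5b overlaps exons of Iqck, a gene on the opposite strand at chr7:118855752-118972652 that encodes a protein with an IQ motif. The counts of Gprc5b were more than 0.005 away from a whole number in 9 of the 17 libraries, and since it is not stated whether strand was used in counting, reads from the overlap cannot be assigned with certainty. Iqck had 1 to 35.9 counts per library against 6 to 955 for Gprc5b. Its level under WD was 0.160 ± 0.110 CPM in WT livers, 0.578 ± 0.192 in N-LKO livers and 1.14 ± 0.602 in tumors (SD, n = 3), and its log2 fold change in tumors against WT livers was 2.85 (SE 0.65, edgeR adjusted p = 0.0214). Iqck thus rose together with Gprc5b in that comparison, at a small fraction of its level. Under HFD Iqck was too low to be tested, at 0.178 ± 0.0937 CPM without and 0.291 ± 0.163 CPM with the knockout (SD, n = 4).

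Sdr9c7 went the other way. It had 53.9, 67.1, 56.3 and 57.9 CPM in HFD WT livers and 32.2, 24.4, 21.3 and 33.0 CPM in HFD N-LKO livers, a log2 fold change of -1.08 (SE 0.14). Under WD it had 32.9, 50.4 and 37.6 CPM in WT livers, 27.4, 23.3 and 15.5 CPM in N-LKO livers, and 24.3, 4.71 and 8.19 CPM in tumors. N-LKO livers lay below WT livers without overlap, and in tumors replicate 1 sat among the N-LKO livers with the other two lower. The log2 fold change was -0.87 (SE 0.48, edgeR adjusted p = 0.471) in N-LKO against WT livers and -0.83 (SE 0.49, adjusted p = 0.395) in tumors against N-LKO livers. In tumors against WT livers Sdr9c7 fell by 1.70 on the log2 scale (SE 0.49, adjusted p = 0.0455). This call was close to the threshold and was lost when any single WD library other than tumor replicate 1 was left out (adjusted p from 0.0628 to 0.140). Without tumor replicate 1 the log2 fold change was -2.65 (adjusted p = 0.00142), and the difference from N-LKO livers also passed, at -1.78 (adjusted p = 0.00984).

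The groups of Prex2 were apart by genotype in HFD livers and overlapped in WD livers. It had 9.79, 10.9, 7.45 and 12.4 CPM in HFD WT livers and 2.32, 2.64, 3.16 and 3.44 CPM in HFD N-LKO livers, a log2 fold change of -1.81 (SE 0.20). In WD livers it had 27.7, 39.6 and 28.2 CPM with the WT genotype and 28.2, 29.95 and 27.7 CPM with the knockout, and in tumors 34.0, 39.1 and 30.97 CPM. The WD groups overlapped, except that each tumor lay above each N-LKO liver. None of the WD differences passed the edgeR test, with log2 fold changes of -0.15 (SE 0.16, adjusted p = 0.695) in N-LKO against WT livers, 0.28 (SE 0.16, adjusted p = 0.388) in tumors against N-LKO livers and 0.13 (SE 0.16, adjusted p = 0.622) in tumors against WT livers. The sign of the first turned to 0.03 without WT replicate 2, the library with the highest Prex2, and that of the last to -0.0036 without tumor replicate 2 and to -0.15 with an offset for transcript length and GC content.

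Ankrd12 had the smallest log2 fold change of the 5 under HFD. It had 23.9, 18.5, 18.5 and 18.6 CPM in HFD WT livers and 33.9, 36.2, 34.5 and 33.7 CPM in HFD N-LKO livers, a log2 fold change of 0.80 (SE 0.10). Under WD the values were 26.1, 24.2 and 29.3 CPM in WT livers, 30.7, 27.9 and 29 CPM in N-LKO livers, and 30.9, 21.2 and 20.2 CPM in tumors. All 3 WD groups overlapped, with tumor replicate 1 above the livers and the other two tumors below them. The edgeR log2 fold changes were 0.14 (SE 0.17, adjusted p = 0.743), -0.28 (SE 0.17, adjusted p = 0.419) and -0.14 (SE 0.17, adjusted p = 0.609) for N-LKO against WT livers, tumors against N-LKO livers and tumors against WT livers. Without tumor replicate 1, tumors were lower than N-LKO livers by a log2 fold change of -0.50 (adjusted p = 0.0376). With an offset for transcript length and GC content in each library, the difference of tumors from WT livers was -0.43 and passed (adjusted p = 0.0494), and that of N-LKO from WT livers turned to -0.13 (adjusted p = 0.644). By the same tolerance of 0.005, Ankrd12 counts were fractional in all 17 libraries, so some of its reads were shared with other features by the counting step.

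**Figure D2:**
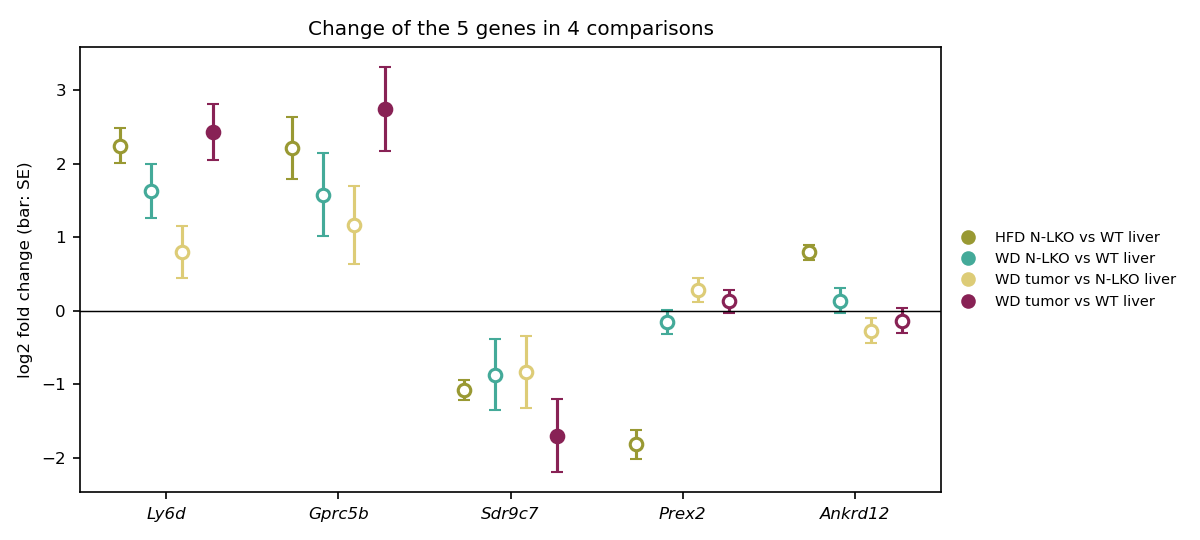
Log2 fold change with its SE (vertical axis) of each gene in 4 comparisons, where filled points passed the edgeR threshold and open points did not, or, for the HFD comparison, carry no test. In tumors against WT livers Ly6d (2.43), Gprc5b (2.74) and Sdr9c7 (-1.70) are filled, while the WD points of Prex2 and Ankrd12 lie near 0.

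Counted together, none of the 5 genes passed the edgeR threshold in WD N-LKO against WT livers, where 0% of 17829 genes did. In tumors against N-LKO livers none of them passed either, where 0.499% of genes did. In tumors against WT livers 3 of 5 passed, 2 higher and 1 lower, where 14.9% of all genes passed, 8.08% higher and 6.8% lower. That comparison differs in genotype and in tissue at once. The groups did not overlap for 2 higher genes and 1 lower gene in WD N-LKO against WT livers, beside 14.4% and 13.6% of all genes. The same held for 2 higher genes in tumors against N-LKO livers (11.5% of all genes, with 11.6% lower), and for 2 higher genes and 1 lower gene in tumors against WT livers (17.7% and 16.4%). Under HFD the choice of the genes fixed that their groups were apart, 3 higher and 2 lower, and nothing is read from it. Of all 13460 genes tested there, 7.38% had groups apart and higher, 7.4% had groups apart and lower, and 4.84% passed the edgeR threshold. The 3 WD comparisons share their groups of 3 libraries.

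The genotype difference under WD minus that under HFD, fitted over the 14 livers, uses the HFD livers that chose the genes, so its values describe the choice and carry no test. It was -0.60 (SE 0.45) for Ly6d, -0.63 (SE 0.74) for Gprc5b and 0.23 (SE 0.27) for Sdr9c7 on the log2 scale, and 1.69 (SE 0.25) for Prex2 and -0.64 (SE 0.15) for Ankrd12.

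Transcript length moved with the HFD comparison over all genes. The Spearman correlation across genes between transcript length and the HFD log2 fold change was -0.35, and the median log2 fold change was -0.19 in the 10% of genes with the longest transcripts and 0.21 in the 10% with the shortest. In WD N-LKO against WT livers the correlation was 0.13, and these medians were 0.08 and -0.10. Prex2 and Ankrd12 both belong to the longest 10%, and they lay on opposite sides of its median under HFD. With an offset that removes the trend with length and GC content from each library, the HFD log2 fold change of Ankrd12 was 1.01 in place of 0.80. The same offset gave a WD minus HFD difference of 1.25 for Prex2 and -1.08 for Ankrd12. Over all alternatives that kept every library, the HFD log2 fold change ran from -1.81 to -1.61 for Prex2 and from 2.06 to 2.26 for Ly6d. Ly6d lies in the shortest 10%, whose median under HFD was small beside its own log2 fold change.

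**Figure D3:**
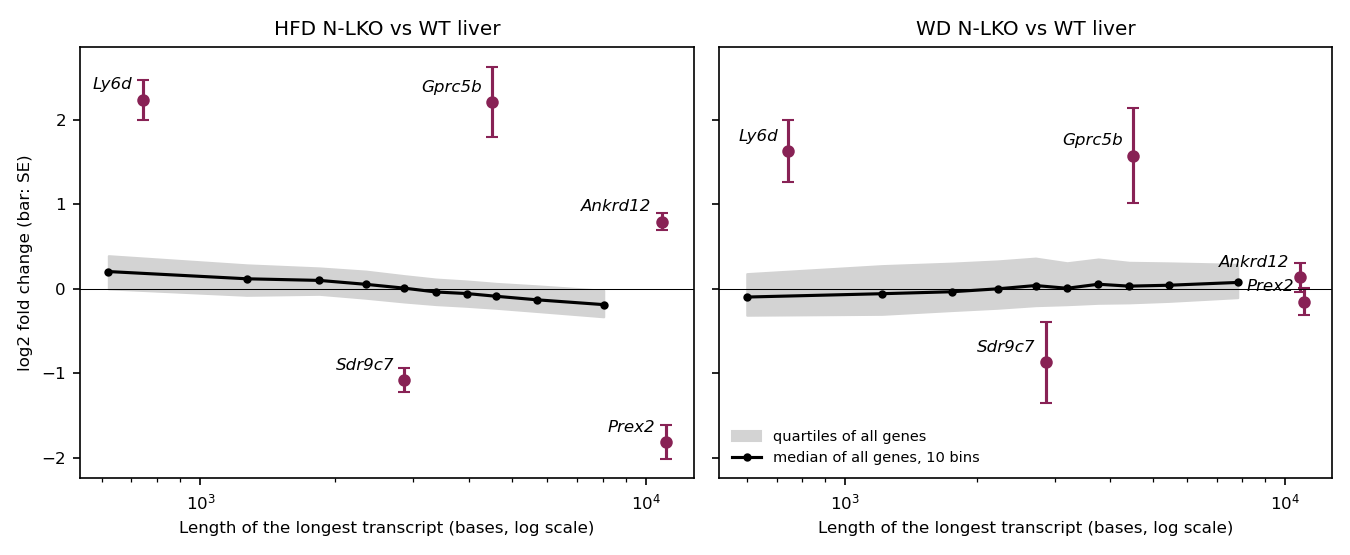
Log2 fold change (vertical axis) against transcript length in bases (horizontal axis, log scale) in N-LKO against WT livers of each diet, with the 5 genes as points with their SE and all genes as the median and quartiles of 10 bins. Under HFD the medians run from 0.21 in the shortest bin to -0.19 in the longest, and Prex2 and Ankrd12, both in the longest bin, lie on opposite sides of them.

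Over the 9 WD libraries Ly6d and Gprc5b varied together. Their log2 CPM had a Pearson correlation of 0.98 and a Spearman correlation of 0.97, and the Pearson value was 0.97 once the group means were removed. WT replicate 2 had the lowest Ly6d and Gprc5b of all WD livers and the highest Sdr9c7, and tumor replicate 1 the lowest Ly6d and Gprc5b of the tumors and the highest Sdr9c7. Sdr9c7 was correlated with Ly6d at -0.87 and with Gprc5b at -0.89, and at -0.70 and -0.71 with group means removed. Prex2 and Ankrd12 were correlated at -0.51. These values describe 9 libraries in 3 groups that share depth and scaling, and they carry no test.

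The genes with the profiles most like each of the 5 were found over the 9 WD libraries by Pearson correlation among 10968 genes. For Ly6d they were Tpd52, Pak1 and Sox4 (0.99, 0.99 and 0.98), with values over the 8 HFD libraries of 0.28, 0.89 and 0.91. For Gprc5b they were Sox4, Zfp704 and Ly6d itself (0.98 each), with 0.88, 0.88 and 0.85 over the HFD libraries. The HFD values, here and for the other genes, span the genotype difference that chose the 5 genes. They therefore partly describe that choice and carry no test. Sox4 encodes a transcription factor of the SRY-related family and Pak1 a kinase activated by Rac. In tumors against WT livers the log2 fold changes were 2.52 for Sox4, 1.94 for Pak1, 1.30 for Zfp704 and 0.64 for Tpd52.

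For Sdr9c7 the most alike genes were Macrod2, Mup10 and Npr2 (0.98 each), of which Npr2, a receptor for natriuretic peptide, also had a high value under HFD (0.83). Macrod2 and Mup10, a major urinary protein, had -0.46 and -0.16 there. For Prex2 the leading values were lower, 0.91 for St3gal1, 0.91 for Crbn and 0.90 for Ubl3, with 0.48, 0.63 and 0.06 under HFD. For Ankrd12 they were Mbnl2, Eps15l1 and Slc16a7 (0.98 each), with 0.35, -0.45 and 0.45 under HFD. The likeness of several of these genes over the WD libraries was therefore not found over the HFD libraries.

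Most relatives of Ly6d were too low to test or not listed, and 9 of 24 genes of the Ly6 family list were tested under WD. Values given for the genes and medians of this and the following lists are log2 fold changes. When tumors were set against WT livers, 3 of the 9 tested Ly6 family genes rose and 1 fell, where 8.08% of all genes rose and 6.8% fell. Their median log2 fold change was 0.88 beside 0.04 for all genes. Ly6c1, a surface protein of monocytes and endothelial cells, rose by 5.47 (SE 0.84, edgeR adjusted p = 0.00819) and also exceeded N-LKO livers by 5.39 (SE 0.80, adjusted p = 0.0266), the only gene of the list to pass there. Its mean was 0.233 ± 0.249 CPM in WT livers and 9.999 ± 5.70 CPM in tumors (SD, n = 3), so the fold rests on a few counts per WT library. Lynx1, the neighbour of Ly6d 9010 bases away, rose by 1.38 (SE 0.38, adjusted p = 0.0368), and Ly6e, the next tested gene on its other side, by 0.90 (SE 0.23, adjusted p = 0.0306). Ly6c2 had 1.39 (adjusted p = 0.0621) and Ly6a 0.88 (adjusted p = 0.0524). Ly6c1 and Ly6c2 are near-identical copies whose shared reads may be split between them. No gene of the list passed in WD N-LKO against WT livers (median 0.56 beside 0.01), and under HFD 1 of 4 tested did, the complement regulator Cd59a at 0.32 (adjusted p = 0.0497).

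Of the relatives of Gprc5b, Gprc5c was tested and Gprc5a and Gprc5d were not tested. Gprc5c had log2 fold changes of -0.12 (edgeR adjusted p = 0.404) under HFD, -0.44 (adjusted p = 0.474) in WD N-LKO against WT livers, 0.67 (adjusted p = 0.195) in tumors against N-LKO livers and 0.23 (adjusted p = 0.547) in tumors against WT livers. None of these differences passed. The other neighbour of Gprc5b, Pdilt, a chaperone-like protein of the endoplasmic reticulum, had -0.49 (adjusted p = 0.165) in the last comparison.

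Sdr9c7 lies between Rdh7 and Hsd17b6, enzymes of the same family that act on retinoids and steroids. In tumors against WT livers Rdh7 fell by 1.43 (SE 0.27, edgeR adjusted p = 0.0130), as Sdr9c7 did, and Hsd17b6 had a log2 fold change of 1.40 (SE 0.46, adjusted p = 0.0649). In the list of retinol dehydrogenase relatives and retinoid metabolism, 27 of 33 genes were tested under WD. Of these, 5 rose and 8 fell in tumors against WT livers, where 8.08% of all genes tested rose and 6.8% fell, with a median of -0.03 beside 0.04 for all genes. Aldh1a2, which makes retinoic acid, rose by 3.50 (SE 1.01, adjusted p = 0.0446) from a mean of 0.0795 CPM, a few counts at most per WT library, and the retinol dehydrogenase Dhrs9 by 3.11 (SE 0.61, adjusted p = 0.0140). Cyp26b1, which breaks retinoic acid down, fell by 1.72 (SE 0.43, adjusted p = 0.0275). No gene of the list passed in the other 2 WD comparisons, whose medians were -0.20 and -0.01, and the median of the 25 tested under HFD was 0.09. Many Rdh genes are close copies in 1 cluster, so their counts are uncertain where reads were shared.

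For the pathway of Prex2, 29 of 30 genes in the list of Rac GTPases, their exchange factors and PI3K signalling were tested under WD. Of these, 4 rose and 2 fell in tumors against WT livers, beside 8.08% and 6.8% of all genes tested, with a median of 0.08 beside 0.04. Pak1 rose by 1.94 (SE 0.33, edgeR adjusted p = 0.00969) and Elmo1, part of a Rac exchange factor complex, by 1.05 (SE 0.30, adjusted p = 0.0419). The exchange factors Tiam1, Tiam2 and Arhgef6 had -0.15, 0.47 and 1.01 (adjusted p = 0.860, 0.418 and 0.0578). None passed in the other 2 WD comparisons (medians 0.01 and 0.10) or among 25 tested under HFD (median -0.11), where the groups of Prex2 were apart. Its neighbours Arfgef1 and Sulf1 did not pass in any comparison in which they were tested, and Arfgef1 had -0.22 under HFD (adjusted p = 0.119).

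All 16 genes in the list of Ankrd11 and nuclear receptor coregulators were tested. Under HFD 4 fell and none rose, where 4.84% of all genes passed in either direction, and the median was -0.21, beside -0.19 for the 10% of all genes with the longest transcripts. On the same side of 0 as Ankrd12 were 4 genes, Ankrd11, Hdac3, Gps2 and Crebbp, with 0.35, 0.25, 0.17 and 0.02, none of which passed. The 4 that fell were chosen here after their values were seen: the acetyltransferase Ep300 (-0.51, edgeR adjusted p = 0.0176), Nrip1 (-0.45, adjusted p = 0.0275), the mediator subunit Med1 (-0.38, adjusted p = 0.0268) and the coactivator Ncoa2 (-0.36, adjusted p = 0.0261). None passed in the 3 WD comparisons, with medians of -0.07, 0.03 and -0.02. Ankrd11, the closest relative of Ankrd12, had 0.35 (adjusted p = 0.0818) under HFD and -0.47 (adjusted p = 0.0633) in tumors against WT livers. Ncor1, Hdac3 and Gps2, parts of a corepressor complex, had -0.39, 0.31 and -0.30 in tumors against WT livers (adjusted p = 0.0834, 0.200 and 0.263). The neighbours Twsg1 and Ndufv2 did not pass in any comparison.

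In bulk tissue, fewer cells of a type and less RNA per cell cannot be told apart, so marker genes of other cell types were measured beside the 5 genes. The summed level of the markers of cholangiocytes, the cells of the bile ducts, had the same order of groups as Ly6d and Gprc5b, but not the same order of tumors. The 6 markers summed to 20.5 to 38.9 CPM in HFD WT livers and 54.96 to 100.3 CPM in HFD N-LKO livers, and to 17.8 to 70.2, 115.7 to 153 and 195 to 524 CPM in WD WT livers, N-LKO livers and tumors. Among the tumors, replicate 2 had the highest Ly6d (173 CPM) and Gprc5b (42.5 CPM) with the lowest marker sum (195 CPM), and replicate 1 had the lowest Ly6d (87.0 CPM) with a sum of 377 CPM. Most of each sum was Spp1, which encodes the secreted protein osteopontin, with group means of 21.3 to 323 CPM, and in tumors also Sox9, a transcription factor, with a mean of 39.3 CPM. Sox9 rose by 1.90 in tumors against N-LKO livers (edgeR adjusted p = 0.0355) and, with Spp1, in tumors against WT livers (2.67 and 2.88, adjusted p = 0.00529 and 0.0187). Under HFD 2 of the 6 were tested, and Spp1 rose by 1.55 (adjusted p = 0.0139), where 4.84% of all genes tested passed in either direction. The duct markers Krt7, Krt19, Epcam and Cftr stayed at or under 3.37 CPM in every library. They had log2 fold changes of -1.06, -0.65, -1.04 and -1.06 in tumors against N-LKO livers (adjusted p = 0.461 to 0.725), where those of Ly6d and Gprc5b were positive. In WD N-LKO against WT livers all 6 were positive, with a median of 1.20, and 4 had groups apart and higher (14.4% of all genes). None of the 6 passed there, where 0% of all genes did. The part of these cells in the levels of Ly6d and Gprc5b was not tested.

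**Figure D4:**
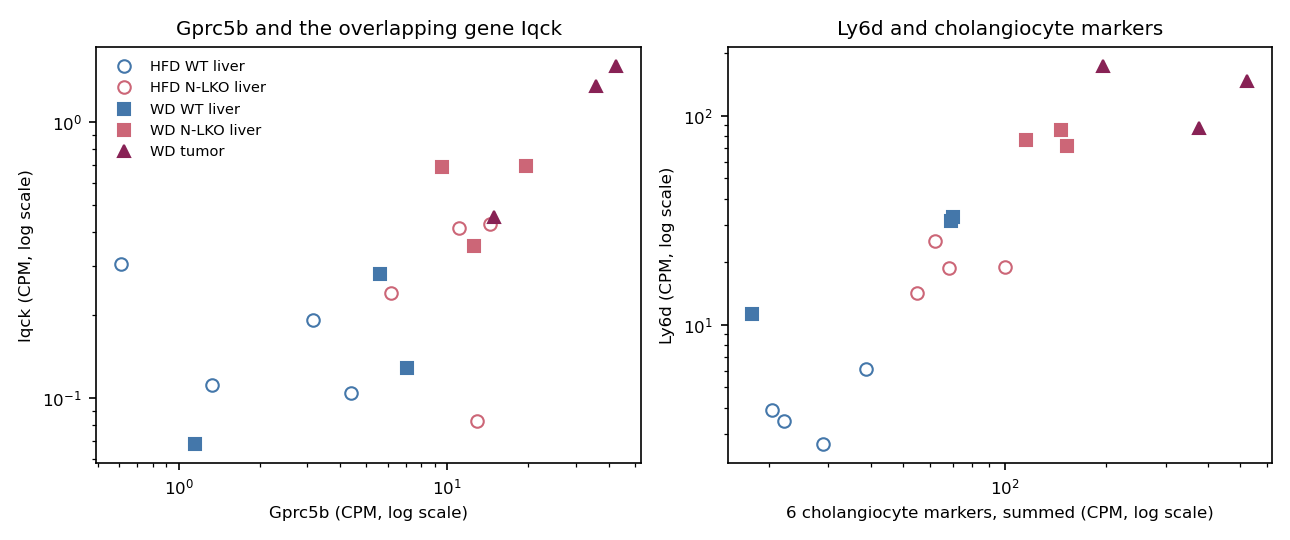
Left, CPM of Iqck against CPM of Gprc5b; right, CPM of Ly6d against the summed CPM of 6 cholangiocyte markers, in the 17 libraries by group, with log scales on all axes. Iqck stays under 1.6 CPM where Gprc5b reaches 42.5 CPM, and the libraries with the highest marker sums are tumors, up to 524 CPM.

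Markers of B cells and stratified epithelium, in which Ly6d is best known, had low levels. The 5 B cell markers summed to 1.22 to 6.005 CPM over all 17 libraries, with none tested under HFD and no call among 4 tested under WD. The log2 fold changes of all 4 were positive in tumors against WT livers (median 0.96). In WD N-LKO against WT livers 3 of 4 were positive (median 0.66). The part of B cells in the levels of Ly6d was not tested. Of the 8 stratified epithelium markers, Krt5, Krt14, Krt1 and Dsg3 were listed in neither table, and the sum stayed between 0.543 and 7.39 CPM, with no call among the 1 and 2 genes tested. The markers of plasmacytoid dendritic cells, a type that can also carry Ly6d, summed to 45.4 to 55.01 CPM in WT livers and 66.2 to 73.9 CPM in knockout livers under HFD. There 2 of 3 tested rose (Bst2 and Tcf4, which made up most of the sum). In WD WT livers, N-LKO livers and tumors the sums were 101 to 129, 125 to 130 and 132 to 155 CPM. In tumors against WT livers 2 of 5 rose, Siglech by 1.27 (edgeR adjusted p = 0.0214) and Tcf4 by 0.79 (adjusted p = 0.0124). The more specific markers Siglech and Ccr9 were too low to test under HFD, with means of 0.508 ± 0.275 and 0.625 ± 0.445 CPM in WT livers and 0.292 ± 0.227 and 0.312 ± 0.217 CPM in knockout livers (SD, n = 4). Under WD the means of Siglech were 1.16 ± 0.389, 1.69 ± 0.167 and 2.79 ± 0.210 CPM in WT livers, N-LKO livers and tumors. Those of Ccr9 were 3.30 ± 0.277, 3.79 ± 1.67 and 3.66 ± 2.12 CPM (SD, n = 3), without a call. T and NK cell markers summed to 1.31 to 8.40 CPM, and 1 of 6 rose in tumors against WT livers. Of all genes tested, 4.84% passed in either direction under HFD and 8.08% rose in tumors against WT livers.

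Of the other cell types measured beside the HFD difference of Prex2, macrophages had several calls and endothelial and stellate cells 1 and none. Of all genes tested, 4.84% passed in either direction under HFD, and 8.08% rose and 6.8% fell in tumors against WT livers. The Kupffer cell and macrophage markers summed to 109.7 to 165 CPM in WT livers and 52.5 to 109 CPM in knockout livers under HFD, where 4 of 6 fell. Under WD the sums were 417 to 609, 359 to 432 and 116.4 to 352 CPM in WT livers, N-LKO livers and tumors, and 3 of 6 fell in tumors against WT livers. Endothelial markers summed to 117 to 144 CPM in WT livers and 84.4 to 125 CPM in knockout livers under HFD, which overlap, with 1 of 7 lower. The log2 fold change of 1 of these 7 was positive under HFD, with a median of -0.44. In the WD groups the endothelial markers summed to 307 to 342, 275 to 329 and 319.7 to 355 CPM, and 2 rose and 1 fell in tumors against WT livers. Stellate cell and fibroblast markers summed to 135 to 239 and 193 to 283 CPM under HFD, which also overlap, without a call. The log2 fold changes of 5 of the 7 were positive there, with a median of 0.59. Under WD the sums were 419.7 to 779.9, 711 to 859 and 446 to 757 CPM, and 1 of 7 fell in tumors against WT livers. The part of these cells in the levels of Prex2 was not tested.

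Some of the hepatocyte genes with a sex bias passed. Of 7 male-biased genes, 3 fell under HFD, and 2 of 6 tested fell in WD tumors against WT livers. Of the female-biased genes 1 of 4 tested rose under HFD and 1 of 6 tested in WD tumors against WT livers. Of all genes tested, 4.84% passed in either direction under HFD, and 8.08% rose and 6.8% fell in tumors against WT livers. The male-biased genes summed to 10538 to 13443 CPM in HFD WT livers and 5963 to 13606 CPM in HFD N-LKO livers. Under WD they summed to 6068 to 7152, 7595 to 9892 and 3171 to 5174 CPM in WT livers, N-LKO livers and tumors. Most of each sum was Mup20, with log2 fold changes of -0.11 under HFD and 0.52 in WD N-LKO against WT livers. The median of the male-biased genes was -0.84 under HFD, with none of 7 positive. In WD N-LKO against WT livers it was -0.77, with 1 of 6 positive, so the sum and the median went opposite ways there. The female-biased genes summed to 25.6 to 119 and 79.8 to 203 CPM in the HFD groups and to 9.17 to 76.4, 10.3 to 47.3 and 64.1 to 963 CPM in the WD groups. Of the 6 hepatocyte markers none was called under HFD and 2 fell in tumors against WT livers. In WD N-LKO against WT livers none of the 6 log2 fold changes was positive, with a median of -0.55. The groups of 4 of these markers were apart and lower there, beside 13.6% of all genes. No marker list had a call in WD N-LKO against WT livers, where 0% of all genes passed, so this lack of calls says nothing about the markers. Sox9 was the only marker called in tumors against N-LKO livers, where 0.499% of all genes passed. The part of these markers in the values of the 5 genes was not tested.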

How the data were processed

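The authors deposited 1 table of estimated counts per gene for each diet, made in Partek with an expectation-maximization step that divides shared reads between features; values are not normalized and replicates are not pooled. The study names TopHat2 for alignment and the submitters' processing notes name STAR, Partek and mm9, while the start listed for 97.2% of HFD and 96.8% of WD genes was that of GRCm38 in GENCODE M21, whose positions are used. Reads were single-end, after ribosomal RNA removal. Columns with the authors' own comparisons were not used.

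Counts were rounded and fitted in edgeR 4.0.16 (R 4.3.3) with TMM scaling, filterByExpr and the quasi-likelihood F test, adjusted by Benjamini-Hochberg over all genes tested (13460 HFD, 17829 WD; threshold 0.05). The 8 HFD libraries were fitted alone, the 9 WD libraries together, and the 14 livers together for the WD minus HFD difference. Each SE is approximate, taken from the log2 fold change and its F value. CPM use TMM-scaled totals. Correlations use log2 CPM (prior count 2) of genes with a mean of at least 1 CPM in both tables. Fits were tested on simulated data. Alternatives used DESeq2 1.42.0, limma 3.58.1 (voom), other scalings and filters, unrounded counts, a length and GC offset (mgcv 1.9.3), a replicate block, fewer groups and left-out libraries. Replicates were distinct libraries (chi-square of counts per degree of freedom 7.99 to 103 over 21 pairs within groups).

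The 5 genes, the 5 lists of related genes and the 11 marker lists were chosen with earlier results of these data known. Named besides are each gene's nearest tested neighbours and its 3 most correlated genes (automatic names passed over), Nus1, Dhdds, and up to 5 genes of a related list by the largest absolute WD change. Some results for single genes of these lists are not reported here.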

Additional observations from a re-analysis of the deposited data

Results flagged for a closer look

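Ankrd12 in HFD WT livers had 1 library apart from the rest, with 23.9 CPM against 18.5 to 18.6 CPM in the other three. The gap to the nearest library was 98.6% of the group's whole range. Of the 10 gene and group combinations with 4 libraries that were examined, this was the one set apart, and chance sets apart about 1 in 20. Without that library, the HFD log2 fold change of Ankrd12 was 0.90, against 0.80 with it.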

How the results depend on the processing

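Of the alternatives, DESeq2 called the most genes in N-LKO against WT livers, with 999 under HFD (652 by edgeR) and 99 under WD (0 by edgeR), and 1021 in tumors against N-LKO livers (89 by edgeR). Under WD, 1 of the 5 genes was among them, Ly6d at 1.62. In tumors against N-LKO livers, 58 genes passed with a filter at a mean of 1 CPM and 18 by limma-voom. With fits of only the 2 groups compared, 6 genes passed in WD N-LKO against WT livers, 29 in tumors against N-LKO livers and 705 in tumors against WT livers, where the edgeR fit of all 3 groups called 2653. Sdr9c7 in tumors against WT livers then had -1.73 (adjusted p = 0.0887) and, with upper-quartile scaling, -1.62 (adjusted p = 0.0548). The length and GC offset left 270 genes under HFD. It turned Ankrd12 to -0.13 in WD N-LKO against WT livers and Prex2 to -0.15 in tumors against WT livers, and Ankrd12 in the latter passed at -0.43 (adjusted p = 0.0494). The cause of these shifts was not tested. The correlation of Sdr9c7 with Macrod2 was -0.46 over the HFD libraries.

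With 1 library left out at a time, the number of genes called ran from 179 to 597 under HFD, from 0 to 1 in WD N-LKO against WT livers, from 3 (without N-LKO replicate 2) to 2193 (without tumor replicate 1) in tumors against N-LKO livers, and from 569 to 3819 in tumors against WT livers, the extremes being the fits that lack WT replicate 2 and tumor replicate 1. Of the 5 genes, 0 to 2 were called in tumors against N-LKO livers. The log2 fold change of Sdr9c7 ran from -1.78 to -0.45 there and from -2.65 to -1.35 in tumors against WT livers, that of Ankrd12 from -0.50 to -0.16 in tumors against N-LKO livers, and that of Prex2 from -0.25 to 0.033 in WD N-LKO against WT livers and from -0.0036 to 0.31 in tumors against WT livers. A group left with 2 libraries shares the spread of the others.

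Samples with the same replicate number did not deviate together from their group means (correlations from -0.12 to 0.11), so the numbers were not taken to pair them. A replicate block gave 36 genes in tumors against N-LKO livers and 1860 in tumors against WT livers, and changed no call of the 5 genes. Depth limits the precision of genes with few counts. Of the 5 genes Gprc5b had the lowest count in a library, at 6, and Iqck, which overlaps it, had 1.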
